A study of Mus musculus with 11 samples.

Results

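The RNA levels of p53 (gene Trp53), of its regulators Mdm2 and Mdm4 and of 7 of its target genes (Cdkn1a, Zmat3, Bbc3, Bax, Fas, Ccng1 and Perp) were examined in mouse gliomas whose founding cells had been engineered at p53. The 10 genes were taken by their symbols from a table of 27687 genes, and all 10 were found and passed the filter on low counts. RNA of 11 high-grade gliomas was sequenced: by their titles, 9 were Ezh2 knockdown tumours and 2 were controls. Ezh2 is the histone methyltransferase of Polycomb repressive complex 2. Every tumour grew from glioma initiating cells, that is, neural stem cells of the subventricular zone of 7-day-old mice carrying conditional alleles, those of p53 and Ink4a/Arf among them, which were made tumorigenic in culture by repeated infection with a lentivirus carrying Cre under the CMV promoter. Both groups therefore share the Cre-treated p53 and Ink4a/Arf alleles and the hairpin construct FH1-tUTG-shEzh2, which doxycycline switches on. The cells were sorted for GFP as a population and injected into the brains of NOD-SCID mice, which lack mature T and B lymphocytes and whose own cells are part of each tumour sample. The series' text says that mice drank doxycycline or did not, while the treatment field gives the same drinking water (2 mg/ml with 1% sucrose) for all 11 tumours, so effects of drug and hairpin cannot be told apart. Which exons of p53 the conditional allele flanks, and how old the hosts were, is not in the labels.

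p53 is a transcription factor that is held at low levels by Mdm2, a ubiquitin ligase, and by its relative Mdm4, and that accumulates after DNA damage or oncogene signalling. It then raises the transcription of genes that stop the cell cycle, such as Cdkn1a (p21), of genes that promote cell death, such as Bbc3 (Puma), Bax, Fas and Perp, and of Mdm2 itself, which closes a feedback loop. Much of its control acts on the protein, so that the level of Trp53 RNA is no measure of p53 activity, and many of its targets are also transcribed without it. Cells of gliomas commonly carry lesions of this pathway, and here the lesion was introduced by design.

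The libraries held between 11209233 and 18638382 counts. Levels are given as CPM, the counts of a gene per 1000000 counts of its library after scaling by TMM factors, and 3 counts correspond to between 0.162 and 0.273 CPM. Ezh2 itself was lower in 9 of 9 knockdown tumours (7.27 to 30.4 CPM) than in the controls (45.3 and 52.7 CPM), as the labels say (log2 fold change -1.59 ± 0.44 SE, edgeR adjusted p = 0.023), a call that needed both controls (adjusted p = 0.11 with only control 2 and 0.14 with only control 1). Markers fixed for other cell types also differed between the groups. The summed level of 8 macrophage and microglia markers was 227 to 505 CPM in the knockdown tumours and 620 to 1334 CPM in the controls, with 7 of 8 lower, and that of 5 neutrophil markers 1.16 to 6.20 against 51.4 to 162 CPM, with all 5 lower and Ngp, Mpo and Elane at 0 in some library. Of 4 markers of glioma and neural stem cells 3 were lower and 1 higher (438 to 634 against 1067 to 2300 CPM). Of 4 oligodendrocyte markers 2 were higher (141 to 295 against 19.4 to 40.5 CPM), as were 2 of 3 pericyte markers (313 to 783 against 147 to 273 CPM). Single genes made up much of the differences in the stem cell, oligodendrocyte and pericyte sums. Means in knockdown tumours and controls were 397 and 1460 CPM for Nes, 175 and 17.2 for Mbp, and 421 and 90.3 for Pdgfrb. The pericyte marker Rgs5, at 119 and 110 CPM, did not pass. Of 5 neuron markers 2 were higher, of 5 endothelial markers 1 was higher, of 4 astrocyte markers none passed, and of 2 tested lymphocyte markers, of 4 listed, 1 was lower. In RNA of whole tumours, fewer cells of a type and less RNA per cell cannot be told apart, and the part of these cell types in the results below was not tested.

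p53 binds DNA as a tetramer at a pair of half-sites, so the start regions of the genes were read for the letters of its half-site consensus. RefSeq promoters (GRCm38.p6, 250 bases before to 50 after a start) were at hand for 8 of the 10 genes, and not for Zmat3 and Perp. Bbc3 had 3 such promoters, Cdkn1a and Mdm4 had 2 each, and the rest of the 8 had 1. Shares below are over promoters, so a gene with several had more chances of a close match. The p53 half-site consensus of 10 bases, which reads the same on both strands, occurred in 2745 of 32851 promoters (8.36%) and in those of 5 of the 8 genes, Trp53, Mdm2, Cdkn1a, Bax and Ccng1. The pair of half-sites closest to the consensus, with up to 13 bases between them, is shown for each gene with 20 bases on either side, so that the genes that changed (Bbc3 and Fas) can be set beside those that did not pass the test. Capitals mark the 2 stretches of 10 bases closest to the consensus, whether or not they match it. Those of Bbc3, Fas and Mdm4 hold 0 half-sites. All strands are given 5′ to 3′ along the gene.
Cdkn1a: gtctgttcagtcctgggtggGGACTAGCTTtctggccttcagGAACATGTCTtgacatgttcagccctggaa
Bax: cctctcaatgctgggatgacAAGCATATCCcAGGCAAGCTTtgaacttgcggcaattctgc
Ccng1: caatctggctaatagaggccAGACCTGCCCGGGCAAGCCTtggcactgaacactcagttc
Trp53: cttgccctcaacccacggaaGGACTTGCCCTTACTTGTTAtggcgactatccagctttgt
Bbc3: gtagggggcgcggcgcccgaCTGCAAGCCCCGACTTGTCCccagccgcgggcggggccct
Fas: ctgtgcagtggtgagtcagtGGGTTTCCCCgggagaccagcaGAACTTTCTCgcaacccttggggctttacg
Mdm4: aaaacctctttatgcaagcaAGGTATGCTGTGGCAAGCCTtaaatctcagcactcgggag
Mdm2: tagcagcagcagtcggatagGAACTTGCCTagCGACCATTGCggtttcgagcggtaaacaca
The stretches lie at chr17:29090886-29090957 (plus strand, Cdkn1a), chr7:45467070-45467130 (minus, Bax), chr11:40755442-40755501 (minus, Ccng1), chr11:69580264-69580323 (plus, Trp53), chr7:16309466-16309525 (plus, Bbc3), chr19:34290437-34290508 (plus, Fas), chr1:133025606-133025665 (minus, Mdm4) and chr10:117710903-117710964 (minus, Mdm2). The pair at Cdkn1a lay in 1 of its 2 promoters, 12 bases apart and beginning 73 bases before that start. It had 0 mismatches to the consensus, which held for 24 of all promoters (0.0731%). The pairs at Bax and Ccng1 had 1 mismatch, a level that 1.09% of all promoters reached. Those at Trp53, Bbc3, Fas and Mdm4 had 3, which 45.1% of promoters reached, and that at Mdm2 had 4 (89.3%). These matches describe letters in a short window only. Sequence outside it, introns among it, was not read, and binding of p53 was not tested. A pair with mismatches, as at Bbc3, Fas or Mdm2, therefore does not show that the gene lacks a p53 site. Among all tested genes with a promoter in the table, a half-site was present for 9.32% of 1137 genes that were higher, 7.31% of 1478 that were lower and 8.42% of 8195 that did not pass the test.

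**Figure D1:**
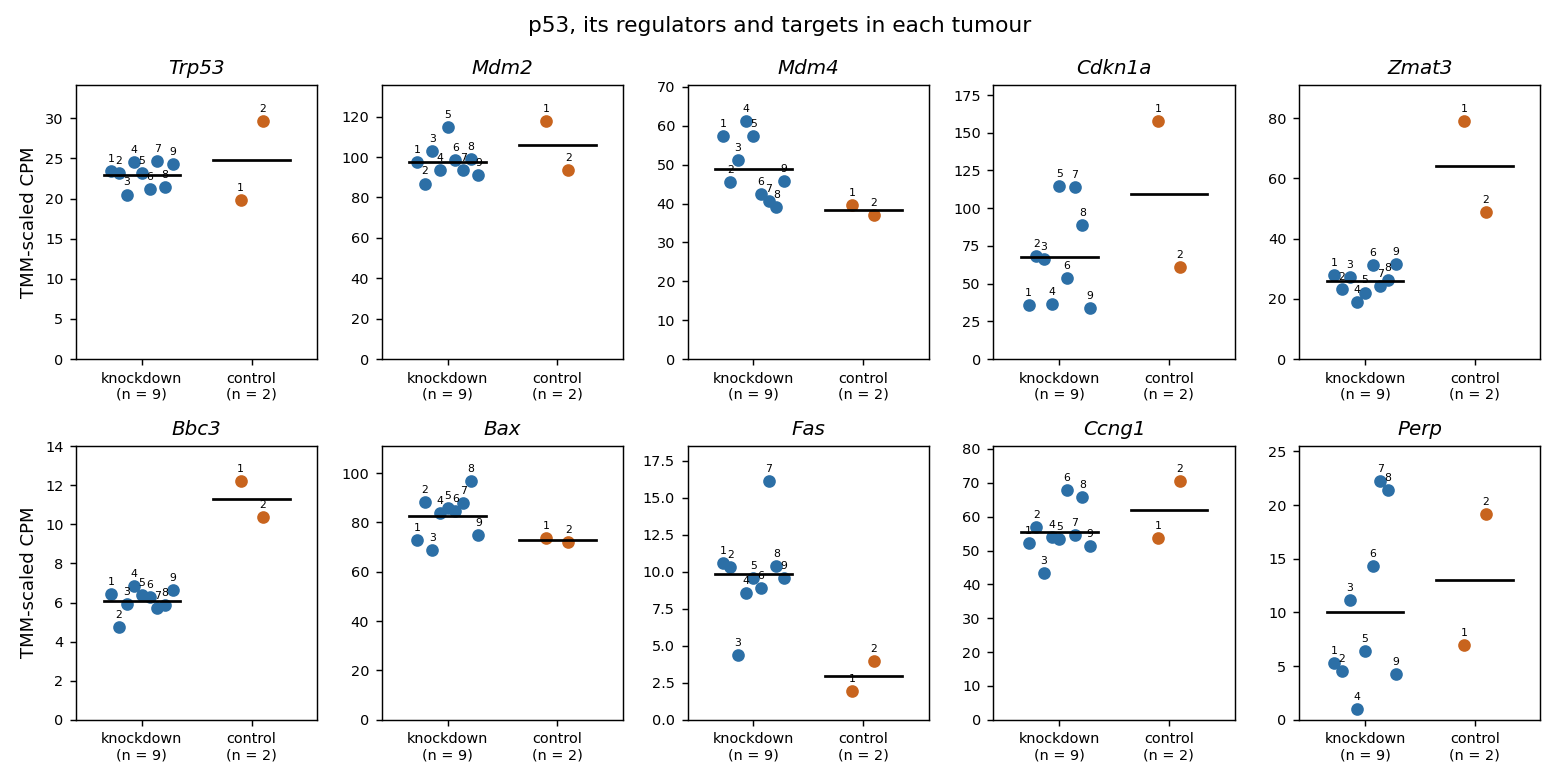
TMM-scaled CPM (linear axis from 0) of the 10 genes in each tumour, numbered by replicate, with knockdown tumours in blue, controls in orange and horizontal lines at the group means. The groups are apart for Zmat3 and Bbc3, which are lower in the knockdown, and for Fas, which is higher, and they overlap for the other 7 genes.

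Of the 10 genes, Zmat3 and Bbc3 fell, Fas rose, and 7 did not pass the test. The edgeR quasi-likelihood test over all 16241 genes tested called 23.3% of them at an adjusted p under 0.05 (10.3% higher and 13.0% lower), so that 3 of 10 is near the background. In the same 3 genes the CPM of the knockdown tumours did not overlap that of the controls, against 27.2% of all genes tested. The median log2 fold change of the 10 genes was -0.14, beside 0.07 over all tested genes.

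Trp53 (ENSMUSG00000059552, mm9 chromosome 11, 69393861 to 69405375) was present in every tumour, at nearly the same level in the 9 knockdown tumours and less alike in the 2 controls. It ran from 20.5 CPM in knockdown 3 through a median of 23.2 to 24.7 CPM in knockdown 7, and stood at 19.8 and 29.7 CPM in controls 1 and 2. All 9 knockdown tumours lay between the controls. The means were 22.9 ± 1.54 CPM (SD, n = 9) and 24.8 ± 6.96 CPM (SD, n = 2), a log2 fold change of -0.11 ± 0.15 SE (edgeR adjusted p = 0.62). An exact permutation test (two-sided, 55 splits of the tumours) gave p = 0.47 on log2(CPM + 1), where 0.018 is the smallest value these group sizes allow. Without control 2 the log2 fold change turned to 0.20 (adjusted p = 0.47).

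Among the knockdown tumours Trp53 was one of the steadiest genes measured. Its coefficient of variation was 6.70%, where counting error alone gives 5.56% at its 233 to 404 reads in these tumours, and only 1.9% of all tested genes varied less. The median over tested genes was 23.0%. The counts cover the gene as a whole, so reads of a shortened transcript from a recombined allele, of an intact transcript and of host cells cannot be told apart, and the level is no check on the loss of p53. In the table's gene models no other gene overlaps Trp53 or any of the other 9 genes. Wrap53, which is named for its place beside Trp53, lies 103 bases from it. It rose 1.52-fold, from 13.2 ± 0.340 to 20.1 ± 2.46 CPM (adjusted p = 0.024, higher in 9 of 9 tumours), a call lost without either control (adjusted p = 0.17 and 0.12).

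The Ink4a/Arf locus, also engineered, did not pass either. Its gene Cdkn2a, which encodes the cell cycle inhibitor p16Ink4a and the Mdm2 inhibitor p19Arf, was read at 26.4 to 49.5 CPM in the knockdown tumours and at 26.6 and 27.8 CPM in the controls (log2 fold change 0.39 ± 0.19 SE, adjusted p = 0.16). The gene-level count does not separate its products or its alleles.

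Mdm2 and Mdm4, the inhibitors of p53, did not pass the test. Mdm2 (mm9 chromosome 10, 117125944 to 117147814) ran from 86.9 to 115 CPM with a median of 97.4 in the knockdown tumours and stood at 118 and 93.6 CPM in the controls (log2 fold change -0.12 ± 0.12 SE, adjusted p = 0.50). Its coefficient of variation, 8.16%, was also among the lowest, with 4.7% of tested genes below it. Leaving out control 1 turned its log2 fold change to 0.06 (adjusted p = 0.86). Mdm4 (chromosome 1, 134886422 to 134921943) ran from 39.2 CPM in knockdown 8 through a median of 45.7 to 61.3 CPM in knockdown 4, beside 39.5 and 37.1 CPM in the controls. In 8 of 9 knockdown tumours it exceeded both controls, the exception being knockdown 8, but its log2 fold change of 0.35 ± 0.18 SE did not pass (adjusted p = 0.17).

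Cdkn1a (chromosome 17, 29227924 to 29237667), the inhibitor of cyclin-dependent kinases through which p53 halts the cycle, varied widely within both groups. It ran from 33.6 CPM in knockdown 9 through a median of 66.0 to 115 CPM in knockdown 5, and stood at 158 and 61.3 CPM in controls 1 and 2. Tumours 1, 4 and 9 were lowest and tumours 5 and 7 highest, and the groups overlap. Its log2 fold change was -0.69 ± 0.47 SE (adjusted p = 0.31), and without control 1 it was 0.15 (adjusted p = 0.92). The coefficient of variation over the knockdown tumours was 47.0%, against 3.60% from counting alone.

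Ccng1 (chromosome 11, 40562054 to 40568813), cyclin G1, a p53 target that recruits a phosphatase to Mdm2, did not pass. It lay between 43.4 and 67.9 CPM with a median of 54.0, beside 53.7 and 70.4 CPM in the controls (log2 fold change -0.16 ± 0.16 SE, adjusted p = 0.48). Without control 2 the value was 0.04 (adjusted p = 0.91).

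Zmat3 (also Wig1; chromosome 3, 32233718 to 32264600), an RNA-binding zinc finger protein that p53 induces, fell 2.48-fold. It was 18.8 CPM in knockdown 4, 26.1 at the median and 31.5 CPM in knockdown 9, and 79.2 and 48.9 CPM in controls 1 and 2. Every knockdown tumour was below both controls, and the highest of them was well under the lower control. The means were 25.8 ± 4.18 CPM (SD, n = 9) and 64.0 ± 21.4 CPM (SD, n = 2), a log2 fold change of -1.31 ± 0.19 SE (adjusted p = 0.00089). Zmat3 alone among the 10 genes kept its call with any of the 11 libraries left out, from -0.92 when control 1 was dropped (adjusted p = 0.035) to -1.62 when control 2 was (adjusted p = 0.0013).

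Bbc3 (chromosome 7, 16894965 to 16903554), the BH3-only protein Puma that frees Bax from its inhibitors, fell 1.85-fold. It lay between 4.77 CPM in knockdown 2 and 6.85 CPM in knockdown 4 with a median of 6.27, and at 12.2 and 10.4 CPM in the controls. All 9 knockdown tumours were below both controls and close to one another, with a coefficient of variation of 10.1%, where counting alone gives 10.8% at 58 to 109 reads. The log2 fold change was -0.89 ± 0.17 SE (adjusted p = 0.0045). Without control 1 it was -0.77 and the call was lost (adjusted p = 0.077).

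Bax (chromosome 7, 52717065 to 52722268), the pore former of the mitochondrial outer membrane, did not pass. It ran from 68.7 CPM in knockdown 3 through a median of 84.6 to 96.6 CPM in knockdown 8, beside 73.5 and 72.0 CPM in the controls, and 7 of 9 knockdown tumours were above both controls. The log2 fold change of 0.18 ± 0.13 SE did not pass (adjusted p = 0.31).

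Fas (chromosome 19, 34365149 to 34402260), the cell surface death receptor, rose 3.32-fold from a low level. It was 4.35 CPM in knockdown 3, 9.59 at the median and 16.1 CPM in knockdown 7, and 1.92 and 3.95 CPM in the controls. All 9 knockdown tumours were above both controls, knockdown 3 by little. The means were 9.82 ± 3.03 CPM (SD, n = 9) and 2.93 ± 1.43 CPM (SD, n = 2), a log2 fold change of 1.73 ± 0.42 SE (adjusted p = 0.014). It was 1.31 without control 1, where the call was lost (adjusted p = 0.16), and 2.34 without control 2 (adjusted p = 0.030), so the size of the rise depends on which control it is set against.

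Perp (chromosome 10, 18564877 to 18576879), a membrane protein of desmosomes that p53 induces in dying cells, was the most variable of the 10 genes. It stood at 0.959 CPM in knockdown 4, 6.44 at the median and 22.2 CPM in knockdown 7, and at 6.92 and 19.2 CPM in the controls. Tumours 7 and 8 were above both controls and 5 tumours below both. Its coefficient of variation was 76.9%, higher than that of 92.9% of tested genes, and its log2 fold change of -0.37 ± 0.82 SE (adjusted p = 0.77) turned to 0.54 without control 2 (adjusted p = 0.80).

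Per length of exon sequence (GENCODE vM21, all exons of a gene joined), the level in the knockdown tumours was highest for Bax, at 52.4 ± 5.57 CPM per kilobase (SD, n = 9). Mdm2 at 19.2 ± 1.56, Cdkn1a at 19.1 ± 9.01 and Ccng1 at 15.8 ± 2.12 CPM per kilobase came next, well below Bax, and neighbours among these 3 genes did not differ by more than the larger SD. Trp53 at 5.66 ± 0.381, Perp at 5.17 ± 3.97, Fas at 4.76 ± 1.47 and Mdm4 at 3.31 ± 0.547 CPM per kilobase followed, below Ccng1, and neighbours among these 4 genes lay within the larger SD of each other. Bbc3 at 2.87 ± 0.290 CPM per kilobase was within 1 SD of Mdm4, and Zmat3 at 2.26 ± 0.366 CPM per kilobase was lowest and below Bbc3 by more than either SD. In the controls the means per kilobase were 46.1 for Bax, 31.0 for Cdkn1a, 20.9 for Mdm2 and 17.7 for Ccng1, then 6.66 for Perp, 6.13 for Trp53, 5.60 for Zmat3, 5.32 for Bbc3, 2.59 for Mdm4 and 1.42 for Fas. By their means, Zmat3 and Bbc3 stood above Mdm4 and Fas in the controls and below them in the knockdown tumours. Bbc3 was within 1 SD of Mdm4 in the knockdown tumours, so for that pair the change of order is not shown. A tumour may use fewer exons than the annotation joins, which would lower such values.

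**Figure D2:**
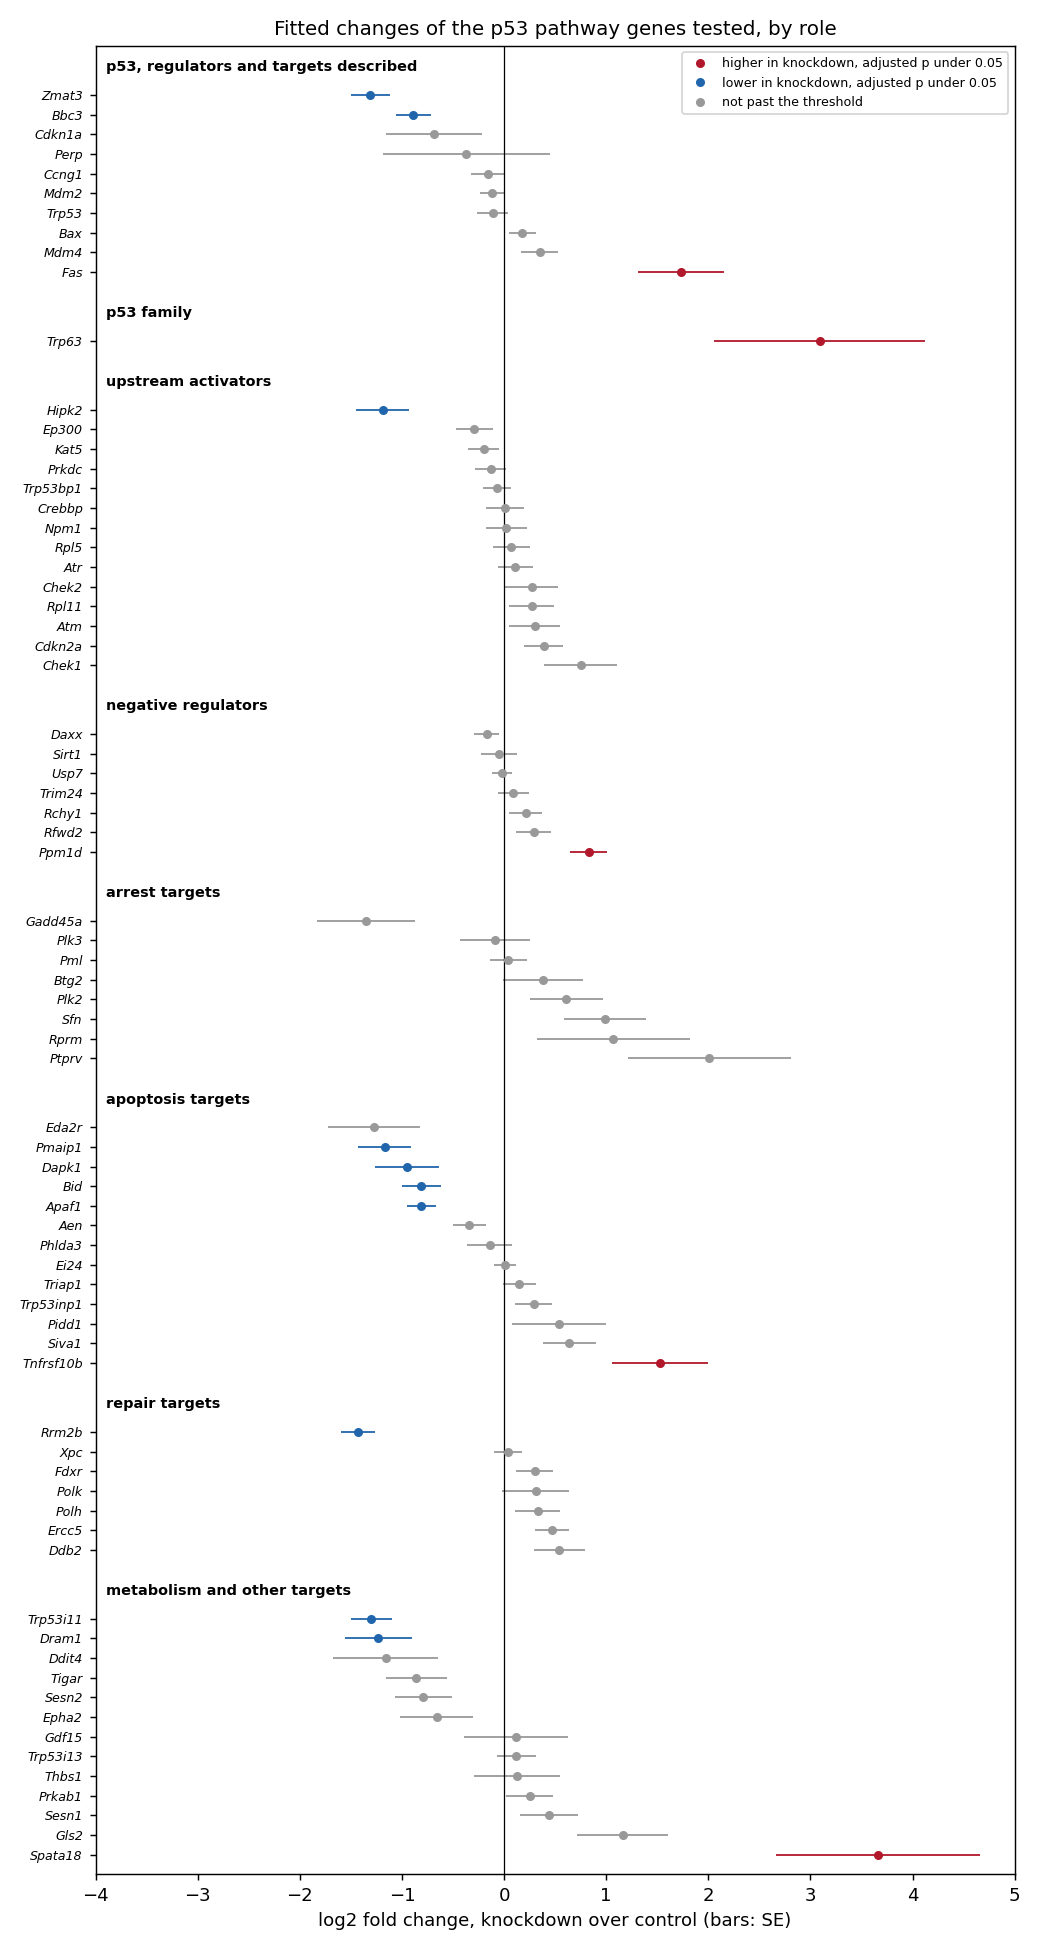
Fitted log2 fold change of knockdown over control (x axis, bars are SE) for the 10 genes and for 63 other tested genes of the p53 pathway, grouped by role. Red and blue mark genes higher or lower at an adjusted p under 0.05. Among the 12 other genes that passed, 4 are higher and 8 lower. None of the 8 arrest targets passes with all 11 libraries, though 2 do without knockdown 9, where 26.3% of all genes pass.

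A wider list of 65 genes around p53, of which 64 were matched and 63 tested, was read in the same fit. In it 4 genes rose and 8 fell, 12 of the 63 tested, beside 23.3% of all genes, and the median log2 fold change was 0.11. The 41 other tested targets of p53 held 2 that rose and 7 that fell (22.0%). The share of calls in the list was thus close to the background.

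Of 13 other targets with a part in cell death, not counting Bbc3, Bax, Fas and Perp, 1 rose and 4 fell (38.5%, beside 23.3% of all genes). Apaf1, the scaffold of the apoptosome, fell 1.76-fold, from 60.1 ± 3.66 to 34.2 ± 4.26 CPM (adjusted p = 0.0019). Pmaip1 (Noxa), a BH3-only protein, fell from 14.8 ± 5.04 to 6.57 ± 1.55 CPM (adjusted p = 0.0094), Bid, another, from 23.0 ± 9.52 to 13.1 ± 0.979 CPM (adjusted p = 0.010), and Dapk1, a kinase that promotes cell death, from 16.1 ± 8.21 to 8.32 ± 2.02 CPM (adjusted p = 0.043). Pmaip1, Bid and Dapk1 lost their calls without control 2, at log2 fold changes of -0.78, -0.31 and -0.31 (adjusted p = 0.18, 0.32 and 0.63), and Dapk1 also without any of 5 knockdown tumours in turn. Tnfrsf10b, the mouse death receptor for the ligand TRAIL, rose from 3.03 ± 0.829 to 8.71 ± 3.96 CPM (log2 fold change 1.53 ± 0.47 SE, adjusted p = 0.037), a call lost without either control (1.83 and 1.26, adjusted p = 0.14 and 0.23), without knockdown 1 or 5 (0.055 and 0.052) and by limma-voom (0.057).

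Of 8 targets that arrest the cycle, 0 passed with all 11 libraries in edgeR (3 at an unadjusted p under 0.05), beside 23.3% of all genes. This count depended on 1 library, since 2 of 8 passed without knockdown 9, beside 26.3% of all genes. These were Gadd45a, lower, and Ptprv, a tyrosine phosphatase, higher. The same 2 passed by DESeq2 (29.9% of all genes), without knockdown 7 and 9 (31.3%) and in the 7 libraries with Xist reads (29.3%). A count of 2 of 8 is near these shares. By limma-voom 0 passed (20.8% of all genes), and with the replicate number as a block 1 did, Gadd45a (4.22%). Gadd45a, a stress-induced inhibitor of growth, came closest, at 72.4 to 364 CPM in the knockdown tumours and 446 and 289 CPM in the controls (log2 fold change -1.35 ± 0.48 SE, adjusted p = 0.063). Plk2 (0.61 ± 0.36), Btg2 (0.38 ± 0.39), Plk3 (-0.09 ± 0.34) and Pml (0.04 ± 0.18) had adjusted p between 0.24 and 0.90.

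Of 7 repair targets, 1 fell (14.3%, beside 23.3% of all genes). The median log2 fold change of the group was 0.31, and the 6 that did not pass all had positive values. Rrm2b (p53R2), the ribonucleotide reductase subunit that p53 induces for DNA repair, had the smallest p of the whole list. Its mean was 12.1 ± 1.64 CPM in the knockdown tumours, with 9 of 9 below both controls at 36.8 and 28.7 CPM, a 2.70-fold fall (log2 fold change -1.43 ± 0.17 SE, adjusted p = 0.00027). It kept its call with any library left out, between -1.60 and -1.24. The DNA damage recognition genes Xpc (0.04 ± 0.14) and Ddb2 (0.54 ± 0.25, adjusted p = 0.13) did not pass.

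Of 13 tested targets in metabolism, autophagy and other functions, 1 rose and 2 fell (23.1%, beside 23.3% of all genes). Trp53i11, named for its induction by p53, fell 2.46-fold from 188 ± 26.6 to 76.6 ± 17.4 CPM (adjusted p = 0.0011) and also kept its call with any library left out. Dram1, a lysosomal membrane protein of autophagy, fell from 16.9 ± 5.56 to 7.22 ± 2.46 CPM (adjusted p = 0.021; 0.053 without control 1 and 0.25 without control 2). Spata18, a protein of mitochondrial quality control, was called higher on 1 read over both controls. Its summed counts were 15.5-fold higher in the knockdown (95% exact binomial interval 2.69 to 620, counting error only), and the call was lost without either control (adjusted p = 0.060 and 0.17).

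Of 14 upstream activators, 1 passed (7.14%, beside 23.3% of all genes). Hipk2, a kinase that phosphorylates p53, fell from 71.2 ± 35.5 to 31.2 ± 6.76 CPM (log2 fold change -1.19 ± 0.26 SE, adjusted p = 0.0079), but control 1 stood at 96.3 and control 2 at 46.2 CPM, and without control 1 the value was -0.57 (adjusted p = 0.29). Atm, the kinase that signals double-strand breaks to p53, ran from 17.2 to 34.7 CPM against 20.5 and 22.6 CPM (0.30 ± 0.25, adjusted p = 0.41). Of 7 negative regulators 1 rose (14.3%, beside 23.3% of all genes). Ppm1d (Wip1), the phosphatase that reverses the phosphorylation of p53 and is itself a p53 target, went from 19.3 ± 5.53 to 34.3 ± 4.05 CPM (log2 fold change 0.83 ± 0.18 SE, adjusted p = 0.0087). Without control 2 it was 0.56 (adjusted p = 0.12). Of the p53 family, Trp73 had at most 3 reads in any library and was not tested, and Trp63 was scarce, at 1.20 ± 0.643 CPM in the knockdown tumours and 4 reads over both controls (log2 fold change 3.09 ± 1.03 SE, adjusted p = 0.048), a call lost with any of 8 of the 11 libraries left out, both controls among them (adjusted p = 0.29 without control 1 and 0.060 without control 2).

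**Figure D3:**
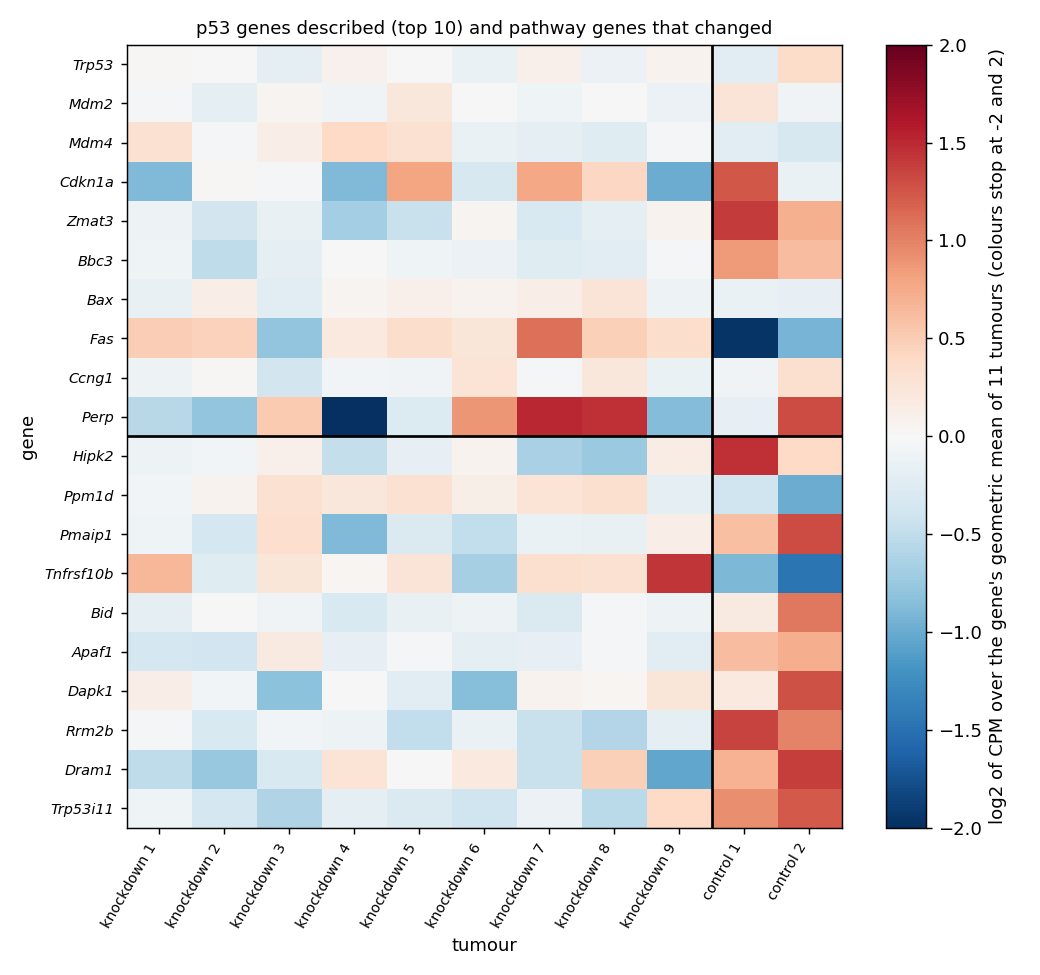
Levels of the 10 genes (above the line) and of 10 pathway genes that passed the test (below it) in each tumour, as log2 of CPM over the gene's geometric mean of all 11 tumours. Zmat3, Bbc3, Apaf1, Rrm2b and Trp53i11 are higher in both controls than in any of the 9 knockdown tumours, whereas Cdkn1a and Perp differ from tumour to tumour within the groups.

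Among the 9 knockdown tumours, the level of Trp53 did not track that of the other 9 genes. Pearson's r of log2(CPM + 1) lay between -0.49 for Perp and 0.66 for Fas, and 0 of 9 relations passed (exact permutation over all pairings, two-sided, smallest raw p = 0.033 and adjusted p = 0.30 for Fas; Spearman's rho 0.42, adjusted p = 0.83). Without knockdown 3 and 6, the tumours farthest from the median of Trp53, r with Fas was 0.21. For the targets that fell, r was -0.40 for Zmat3 and 0.18 for Bbc3, and for Cdkn1a it was -0.18. The spread of Trp53 was itself close to counting error, as given above.

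The level of Ezh2 that remained in the knockdown tumours passed the test against Bax by r and did not by rank. Over the 9 tumours r was -0.88 (exact permutation p = 0.0019, adjusted over 10 relations 0.019) and rho -0.75 (p = 0.025, adjusted 0.13). Without knockdown 3 and 9, which held the most Ezh2, r was -0.77 (exact permutation p = 0.034, adjusted 0.34), and with all 9 tumours on CPM scaled to library totals r was -0.78 (exact permutation, adjusted p = 0.14), so the call did not hold in either setting. Ccng1 had r = -0.75 (exact permutation p = 0.020, adjusted 0.099) and rho = -0.77 (adjusted 0.13). The other 8 genes had adjusted p between 0.26 and 0.94, Zmat3 at r = 0.41 and Bbc3 at 0.15 among them.

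Of 12265 other genes with an average log2 CPM of at least 2, the 5 whose pattern over the 9 knockdown tumours was most like that of Trp53 were Dtx1 (r = 0.983), Rasl11a (0.973), Fxyd1 (0.957), Evi5l (0.957) and Eml3 (0.955). For Cdkn1a they were Bud31 (r = 0.962), Taf1b (0.949), Stc1 (0.941), Oaf (0.939) and Tpbg (0.937). These are the highest of many values over 9 tumours and are given as a description. For Trp53, much of the spread that is matched can be counting error (5.56% of a coefficient of variation of 6.70%). Fas ranked 671 for Trp53, the nearest of the other 9 genes, and for Cdkn1a the nearest was Perp, at rank 978 (r = 0.651).

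**Figure D4:**
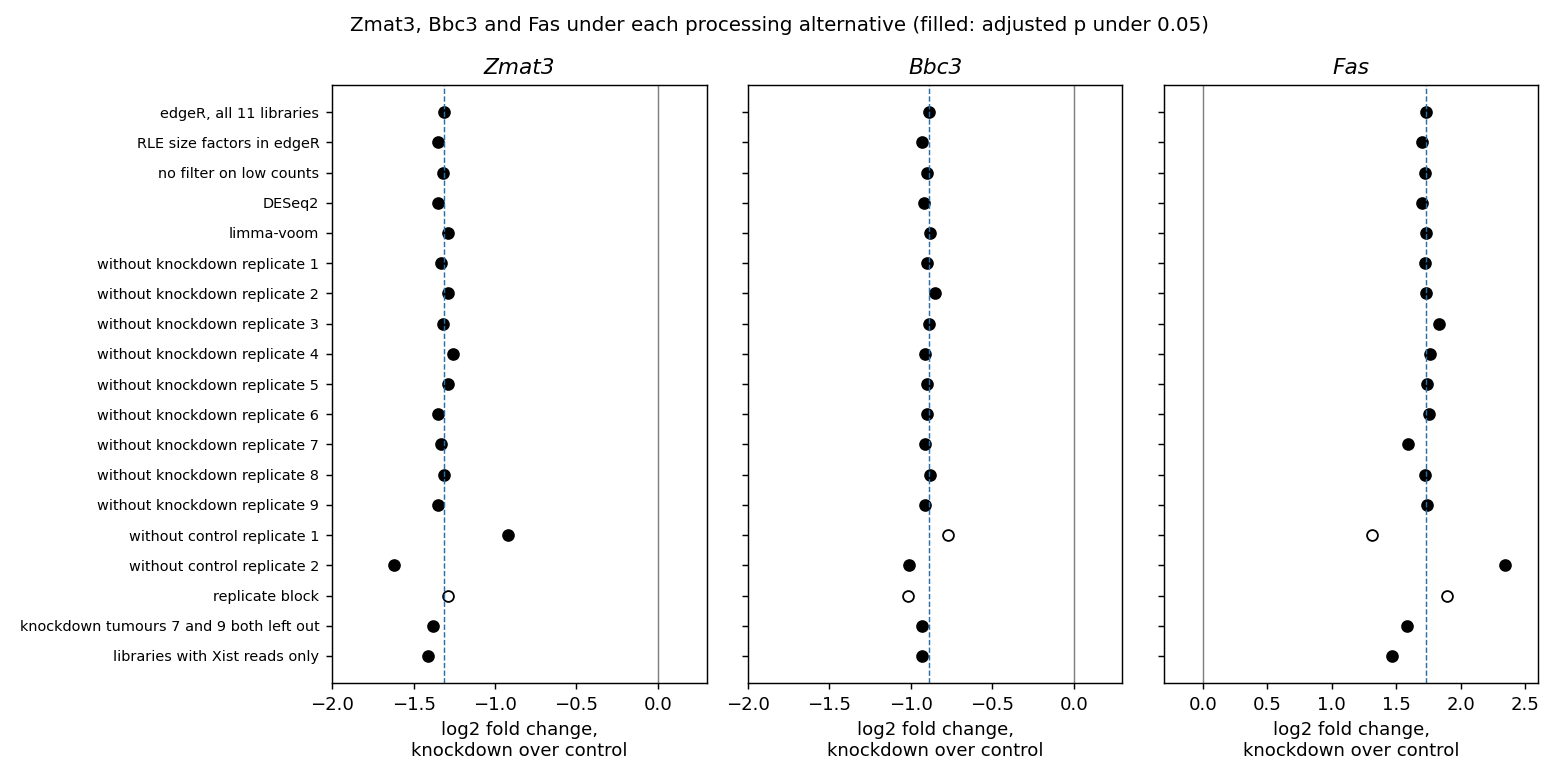
Log2 fold change of knockdown over control for Zmat3, Bbc3 and Fas under each processing alternative and with each library left out, where filled points have an adjusted p under 0.05, open points do not, and the dashed line is the value over all 11 libraries. Zmat3 is open only with the replicate number as a block, and Bbc3 and Fas also without control 1, and no point crosses 0.

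Leaving out a control moved the 3 calls more than leaving out any knockdown tumour did. With 1 knockdown tumour left out, all 3 genes passed in 9 of 9 cases. Of the 15 genes of this pathway that passed, 8 still passed without control 1 and 7 without control 2, where all genes tested gave 7.61% and 10.4% calls, and 15 of 15 kept their direction in both cases. Zmat3, Apaf1, Rrm2b and Trp53i11 passed in both. The 15 genes were picked for passing with both controls, so the shares of all genes tested are no matching base for them. How many of all called genes kept their call was not counted. Where a gene's groups do not overlap in CPM, its direction is the same against either control, so the kept directions add little. DESeq2 called 3 of the 10 genes and 29.9% of all genes it tested, and limma-voom 3 of 10 and 20.8%. With the replicate number as a block 0 of the 10 passed in edgeR (3 at an unadjusted p under 0.05), beside 4.22% of all genes, with adjusted p = 0.056 for Zmat3, 0.12 for Bbc3 and 0.078 for Fas.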

How the data were processed

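Whole-number read counts per Ensembl gene for 11 tumours were used as deposited by the authors. The submitters' processing notes name TopHat 1.4.0, HTSeq and the build mm9; how they were run, with which strand setting or filters, is not given in the sources used. Groups and replicate numbers come from the sample titles. No label ties the tumours to separate cell preparations, so the p-values reflect the spread of these samples alone, some of which may be technical.

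Genes were filtered with filterByExpr (16241 of 27687 kept, 99.9% of counts), scaled with TMM factors (0.919 to 1.077) and tested in R 4.3.3 with edgeR 4.0.16 (glmQLFit, glmQLFTest, all 11 libraries, no covariates, Benjamini-Hochberg adjustment over all tested genes, threshold 0.05). Adjusted p-values in the report are from this test unless another is named. The SE is the log2 fold change divided by the square root of F. The fit was run on simulated data with large known changes in a small part of the genes. That setting is unlike these data, so it does not bear out the calls. Libraries of a group differed beyond sampling noise (smallest chi-square per degree of freedom 11.2).

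The 10 genes and all lists were chosen with earlier results of these data known. Named genes are the 10, every wider-list gene that passed, Cdkn2a, Trp63, Trp73, Ppm1d, Atm and Wrap53, and, outside this rule and chosen after their values were seen, Gadd45a, Ptprv, Ddit4, Plk2, Btg2, Plk3, Pml, Xpc and Ddb2. Of the pathway symbols 72 were matched as written, 2 through a table of current names, and 1, Sco2, was not matched. Some items are not reported here, and the list counts leave them out. Promoters are RefSeq sequences of GRCm38.p6, a later build than that of the counts, and no coordinate was converted. Alternatives were RLE size factors, no filter, DESeq2 1.42.0, limma-voom (limma 3.58.1), each library left out, knockdown 7 and 9 left out, the replicate number as a block, and, added after seeing the data, the 7 libraries with at least 10 CPM of Xist. Xist was unevenly spread over the groups, at 0.108 to 1.1 CPM in knockdown 1, 7, 8 and 9. It stood at 41.4 to 106 CPM in the other knockdown tumours and at 74.2 and 131 CPM in controls 1 and 2.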

Additional observations from a re-analysis of the deposited data

Results flagged for a closer look

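In 2 of 26 genes looked at, 1 knockdown tumour lay far from the other 8 by Dixon's criterion, which chance meets in about 1 of 20 groups. Tnfrsf10b was 18.1 CPM in knockdown 9, with the next tumour at 10.7 CPM. Trp53i11 was 117 CPM in knockdown 9, with the next at 83.7 CPM, and so lay closer to the controls, at 169 and 207 CPM, than the other knockdown tumours did. The 26 genes did not include Gadd45a, Plk2 and Btg2, in which 1 knockdown tumour also stood well above the rest. In knockdown 9, Gadd45a was 364 CPM (next 195) and Plk2 346 CPM (next 194). Btg2 was 56.9 CPM in knockdown 5 (next 34.3). The count of 2 of 26 is therefore no rate for all named genes.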

How the results depend on the processing

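The calls rest on 2 controls. Among the 10 genes, 3 passed, and 1 to 3 with 1 library left out, the low value without control 1. In the wider list 12 passed, and 5 to 17 with 1 library left out (7 without control 1 and 5 without control 2), 19 by DESeq2 and 21 without knockdown 7 and 9. Over all genes 3790 passed, and 1290 to 4269 with 1 library left out (1290 without control 1 and 1750 without control 2). A lone control is assumed to vary like the knockdown group.

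With the replicate number as a block, 0 of the 10 genes, 2 of the wider list (Ddit4 and Gadd45a) and 686 of all genes passed, and 0 of the 15 called genes kept their call. Only replicates 1 and 2 exist in both groups, and their deviations from the group means correlated at -0.142 and 0.017, so the numbers are not taken as pairs.

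The Trp53 difference in log2(CPM + 1) ran from -0.36 to 0.20 with 1 library left out and was 0.01 on library totals. With 1 library left out the log2 fold change of Mdm2 ran from -0.27 to 0.06 and of Cdkn1a from -1.22 to 0.15, both positive without control 1, and that of Trp53 from -0.37 to 0.20, of Ccng1 from -0.35 to 0.04 and of Perp from -0.93 to 0.54, all positive without control 2, and none passed in any of these fits. The r of Trp53 with Bax turned to -0.53 without the 2 outermost tumours, and that of Ezh2 with Trp53 to 0.17 there and 0.11 on library totals. The 1 relation with Ezh2 that passed became 0 in both settings. The cause of these changes was not tested. Zmat3, Bbc3 and Fas kept their calls under RLE factors, no filter, DESeq2, limma-voom, without knockdown 7 and 9, and in the 7 libraries with Xist reads. Depth limits Trp63, Trp73 and Spata18, which had 4 reads or fewer over the controls.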
